A study of Mus musculus with 8 samples.

Results

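The smooth muscle contractile apparatus was followed as 38 genes chosen by symbol from a table of 49671 genes. All 38 had values high enough in at least 2 libraries, of any group, to be tested. They encode actins, myosin chains, tropomyosins, calponins, transgelins, PDZ and LIM domain proteins, crosslinkers and regulators found in contractile mammary myoepithelium. Of these, 18 are known mainly from muscle and myoepithelium and are called muscle-restricted here, and the other 20 are made by most cell types and are called widely expressed.

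Mammary myoepithelial cells form the basal layer around the luminal cells and squeeze milk along the ducts when oxytocin binds its receptor. As in smooth muscle, calcium activates myosin light chain kinase, which phosphorylates the regulatory light chain and lets myosin pull on actin filaments, while myosin phosphatase reverses the step. Calponin, caldesmon, transgelin and tropomyosin bind the actin filament, and desmin, synemin and filamin tie filaments to dense bodies and to the cell edge. Serum response factor, with myocardin or myocardin-related factors as partners, binds a short DNA element called the CArG box and turns on many of these genes.

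The libraries came from mammary glands of mice labelled female, and the samples fall into 4 groups of 2. CD1 luminal and CD1 basal cells were sorted from CD1 mice, and DNp63 luminal and DNp63 basal cells from K8rtTA/TetOCre/Rosa26-DNp63-IRES-GFP mice. In that line the keratin 8 promoter drives the doxycycline-dependent activator rtTA, which drives Cre. Cre in turn allows the ΔNp63 form of p63, a transcription factor of basal epithelium, to be made with GFP. The luminal gate was CD45-CD31-CD140a-CD24+CD29low, and the basal gate was CD45-CD31-CD140a-CD24+CD29high, so blood, endothelial and CD140a+ stromal cells were to be left out of both. In the DNp63 mice both gates were also GFP+. Per the labels, 40000 luminal or 5000 basal cells went into RNA extraction and all mice were of mixed genetic backgrounds. Ages and the induction schedule of these mice were not given in the sources used here. Strain, transgenes, doxycycline and the GFP gate change together between the mouse lines and cannot be told apart. Whether replicate libraries stand for different animals is not stated in the labels, so p-values measure only the spread between these libraries.

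Recovered depth ran from 4136998 to 7206729 reads per library, and 1 read was worth 2.78 to 4.83 on the deposited scale, on which each library's reads were brought to 20000000. Levels below are on that scale and are called scaled reads. Replicates differed by more than sampling noise, with a chi-square of 6.34 to 16.5 per degree of freedom. Xist, a non-coding RNA made from the silenced X chromosome, stood at 36 and 141 in the second DNp63 library of the luminal and the basal gate and at 55545 to 111346 in the other 6 libraries. Xist is made in female cells, so these 2 libraries go against their label of female mice, and in each gate the DNp63 libraries were not repeats of the same RNA. Counts of the 38 genes and of the pathway lists that use these libraries are given with and without them. Trp63, which encodes p63, read 61 and 45 for CD1 luminal, 1297 and 1460 for DNp63 luminal, 5457 and 7079 for CD1 basal and 8088 and 8306 for DNp63 basal cells. Its log2 difference between DNp63 and CD1 was 4.46 in the luminal gate (adjusted p = 1.74e-05) and 0.40 in the basal gate (adjusted p = 0.457).

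Promoters were available from RefSeq (GRCm38.p6) for 34 of the 38 genes, as 41 windows reaching from 250 bases before to 50 bases after the start. A CArG box, 10 bases that read the same on both strands as a pattern, occurred in the windows of 5 of these 34 genes (14.7%), namely Myl9, Myl6, Cnn2, Vcl and Srf. The same search found a box in 535 of all 32851 promoter windows (1.63%). Among the 14 muscle-restricted genes with a window 1 held a box (7.14%), against 4 of the 20 widely expressed genes (20%). Counted by gene, the share was 1.81% (488 of 27025). Srf held 2 boxes, and 6 of the 32851 windows held 2 or more (0.0183%). The 4 stretches below are printed because they show the box in a muscle-restricted light chain, a calponin, a focal adhesion protein and the factor that binds the box. Each runs 5′ to 3′ on the gene's own strand and ends at the last base before the annotated exon, with the box in capitals. They lie at chr2:156775264-156775419 (Myl9, plus strand), chr10:79988480-79988583 (Cnn2, plus strand), chr14:20929148-20929397 (Vcl, plus strand) and chr17:46556176-46556282 (Srf, minus strand).
Myl9: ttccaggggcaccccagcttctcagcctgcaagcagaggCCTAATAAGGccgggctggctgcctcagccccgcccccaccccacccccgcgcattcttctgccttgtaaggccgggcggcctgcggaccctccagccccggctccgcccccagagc
Cnn2: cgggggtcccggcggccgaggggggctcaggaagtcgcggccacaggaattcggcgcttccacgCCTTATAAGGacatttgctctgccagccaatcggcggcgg
Vcl: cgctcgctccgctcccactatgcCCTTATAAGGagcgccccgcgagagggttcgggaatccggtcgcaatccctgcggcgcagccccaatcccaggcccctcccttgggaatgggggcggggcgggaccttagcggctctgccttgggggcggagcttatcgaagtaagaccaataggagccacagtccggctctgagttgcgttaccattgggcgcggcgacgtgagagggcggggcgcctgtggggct
Srf: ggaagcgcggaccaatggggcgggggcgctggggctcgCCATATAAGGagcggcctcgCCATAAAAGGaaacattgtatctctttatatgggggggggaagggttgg
The box began 161 bases before the start in Myl9, 56 in Cnn2, 227 in Vcl, and 82 and 62 in Srf, and 50 in Myl6, whose box reads CCTTATATGG. Acta2 had no box in its window but 2 stretches that miss it by 1 base, CCCTATATGG from 84 bases and CCTTGTTTGG from 34 bases before the start. Stretches that miss the box by 1 base are frequent, with at least 1 in 19.9% and at least 2 in 3.38% of all windows and at least 1 in 11 of the 34 genes. A match only describes these letters, and its absence from a window says nothing of boxes elsewhere.

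Basal cells of CD1 mice held far more RNA of the contractile genes than their luminal cells. Of the 38 genes, 30 were higher and 1 was lower in the basal cells at an adjusted p under 0.05, and 25 were at least 2-fold higher. Over all 16900 genes tested, 44.5% were called, 23.9% higher and 20.6% lower. The libraries of the gates did not overlap for 32 genes higher and 2 lower, beside 36.8% and 34.5% of all genes. The median log2 difference was 2.45 over the 38 genes and −0.03 over all genes tested. All 18 muscle-restricted genes were higher, with a median of 5.39 and a range of 0.85 for Pdlim3 to 6.91 for Myh11. Among them Actg2, Tagln, Lmod1, Myocd and Kcnmb1 passed the filter on low values only through basal libraries. Their being tested is thus tied to their high basal values, here and between the DNp63 gates. The 20 widely expressed genes had a median of 0.77, with 12 higher, Tagln2 lower and 7 not called (Cnn3, Tpm3, Tpm4, Pdlim1, Pdlim5, Actn4 and Srf). The split into these classes was made with earlier results of these data known, so the contrast between them is not independent support. Calls of Pdlim3 and Tagln2 were the least steady, lost in 9 and 4 of 20 alternative settings.

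DNp63 mice gave a like picture from separate libraries. In DNp63 basal against DNp63 luminal cells 32 genes were higher, 1 was lower and 5 were not called, against 49.1% of all tested genes called, 24.8% higher and 24.3% lower. The libraries did not overlap for 34 genes higher and 3 lower, beside 35.7% and 42.9% of all genes. The median log2 difference was 2.32 over the 38 genes, 5.24 over the muscle-restricted and 1.03 over the widely expressed genes, beside −0.08 over all genes. Without the second DNp63 library of both gates 27 of the 38 genes were called, in a fit where 1 library stood for each DNp63 group and the spread came from the CD1 libraries. The muscle-restricted genes together took 0.0245% to 0.0351% of the deposited total in the 4 luminal libraries and 0.832% to 0.998% in the 4 basal libraries. In bulk libraries fewer cells of a type and less RNA per cell cannot be told apart.

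**Figure D1:**
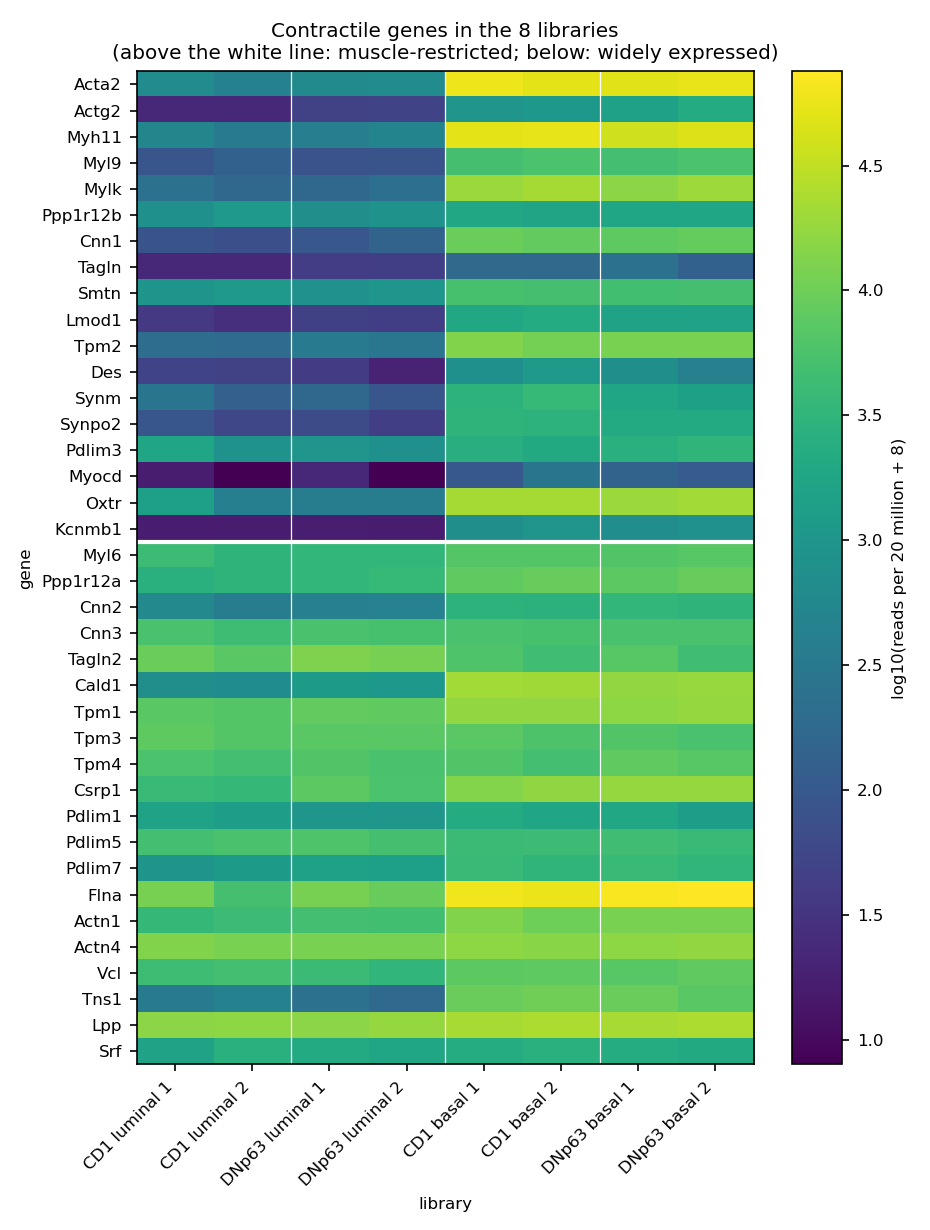
Heat map of the 38 genes (rows) in the 8 libraries (columns), coloured by log10 of scaled reads plus 8, with the 18 muscle-restricted genes above the white line. Acta2 reads 438 to 646 in the luminal libraries and 50512 to 59166 in the basal libraries, while Lpp and Actn4 below the line are bright in all 8.

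Both smooth muscle actins followed the basal gate. Acta2 (chr19:34241090-34255590, minus strand), the α-actin of smooth muscle and the classical myoepithelial marker, read 646 and 438 for CD1 luminal, 619 and 646 for DNp63 luminal, 59166 and 51343 for CD1 basal and 50512 and 56442 for DNp63 basal cells. No luminal library came near a basal library. Its log2 difference was 6.64 ± 0.174 (SE) in CD1 mice, 100-fold (adjusted p = 1.84e-07), and 6.41 ± 0.174 in DNp63 mice (adjusted p = 1.93e-07). Actg2 (chr6:83512905-83536265, minus strand), the γ-actin of visceral smooth muscle, read 15 and 15, 39 and 44, 948 and 1058, and 1501 and 2190 in the same order of groups. Its gate difference was 5.44 in CD1 and 5.23 in DNp63 mice, and both DNp63 libraries lay above both CD1 libraries in each gate. The coding sequences of the actin genes are very similar, so reads shared between them could be split unevenly by the counting.

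The non-muscle actins stayed abundant in both gates. Actb read 55578 to 68798 in luminal and 67064 to 73672 in basal libraries and was not called in any comparison. Actg1 was lower in the basal gate of CD1 mice (log2 difference −0.54, adjusted p = 0.00674). Lengths here and below are of all annotated exons of a gene merged, which can be longer than any 1 transcript. Per kilobase of this length, Acta2 made up 0.705% to 1.05% of the 4 actins summed in luminal libraries. In basal libraries Acta2 made up 39.7% to 45.9% and Actb 43.6% to 47.5%. Basal cells thus carried Acta2 and Actb at like levels per length.

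On the log2(value + 8) scale, smooth muscle myosin showed the largest gate difference of the 38 genes. Myh11 (chr16:14194535-14291372, minus strand), the smooth muscle myosin heavy chain, read 525 and 326 for CD1 luminal, 386 and 482 for DNp63 luminal, 51031 and 52876 for CD1 basal and 39057 and 46363 for DNp63 basal cells. The log2 difference was 6.91 ± 0.21 in CD1 mice, 121-fold (adjusted p = 3.37e-07), and 6.63 ± 0.21 in DNp63 mice. Both DNp63 basal libraries lay under both CD1 basal libraries, a difference of −0.29 (95% interval −0.764 to 0.193) that did not pass the test. Myh11 made up 1.26% to 2.33% of the heavy chains Myh11, Myh9 and Myh10 per length in luminal cells and 56.7% to 68.1% in basal cells. These shares depend on the merged exon lengths. Undivided by length, Myh9 read 45274 and 52459 in DNp63 basal libraries, above Myh11, and 40305 and 36876 in CD1 basal libraries, below it. Myh14, a heavy chain gene not counted in these shares, read 4473 to 6613 in luminal and 713 to 1360 in basal libraries. Myh9, the main non-muscle heavy chain, read 32377 to 39645 in luminal and 36876 to 52459 in basal libraries and was not called between the CD1 gates. Myh10 rose from 2217 and 3179 to 4839 and 4192 between the CD1 gates (log2 difference 0.73, adjusted p = 0.00877).

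Of the light chains, the regulatory chain tracked the gate and the essential chain moved less. Myl9, the regulatory light chain whose promoter is printed above, read 86 and 130 for CD1 luminal, 75 and 79 for DNp63 luminal, 5100 and 5574 for CD1 basal and 4873 and 5642 for DNp63 basal cells. The log2 difference was 5.52 in CD1 and 5.98 in DNp63 mice. Myl6, the essential light chain used by muscle and non-muscle myosin alike, read 3012 to 4245 in luminal and 6352 to 6991 in basal libraries, a difference of 0.83 in CD1 mice (adjusted p = 0.00286).

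The kinase side of the myosin switch differed far more than the phosphatase side. Mylk, the myosin light chain kinase, read 231 and 167 for CD1 luminal, 164 and 216 for DNp63 luminal, 19173 and 21961 for CD1 basal and 15582 and 19614 for DNp63 basal cells. Its log2 difference was 6.62 in CD1 and 6.51 in DNp63 mice (98.4-fold and 90.9-fold). Ppp1r12a, the widely expressed myosin-targeting subunit of the phosphatase, rose by 1.54 and 1.22. Ppp1r12b, its relative known from striated and smooth muscle, rose by only 0.90 and 1.14, and its luminal level was 52.9% of the basal level in CD1 mice.

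Among the thin filament regulators, Cnn1, Lmod1 and Cald1 led. Cnn1 (chr9:22099216-22109630, plus strand), smooth muscle calponin, read 79 and 67 for CD1 luminal, 87 and 141 for DNp63 luminal, 9614 and 8404 for CD1 basal and 7692 and 8669 for DNp63 basal cells. Its log2 difference was 6.77 in CD1 mice, 109-fold (adjusted p = 3.72e-07), and 6.13 in DNp63 mice. Cnn2, a calponin of many cell types, read 589 and 371, 428 and 454, 2940 and 2887, and 3368 and 3032, a difference of 2.59 in CD1 and 2.87 in DNp63 mice. Cnn3 was not called, with 4453 to 5390 in luminal and 5230 to 5505 in basal libraries and a difference of 0.08 in both mice (95% interval −0.193 to 0.354 in CD1 mice). The 3 calponins so ranked Cnn1, Cnn2, Cnn3 in gate difference. Per length Cnn1 went from 1.41% to 2.63% of the calponins in luminal cells to 46.9% to 54.3% in basal cells.

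Lmod1, a leiomodin that starts actin filaments in smooth muscle, read 29 and 19 for CD1 luminal, 37 and 36 for DNp63 luminal, 1827 and 2200 for CD1 basal and 1526 and 1523 for DNp63 basal cells. The log2 differences were 5.97 and 5.13. Cald1, caldesmon, which blocks myosin from actin until it is released, read 734 and 671, 1174 and 1030, 20844 and 20772, and 16926 and 18424 in the same order. It rose by 4.85 in CD1 and 4.03 in DNp63 mice, the largest CD1 gate difference of the widely expressed genes. Smtn, smoothelin, read 808 to 1130 in luminal and 4674 to 5261 in basal libraries, a difference of 2.32 and 2.49.

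The transgelins went opposite ways. Tagln (chr9:45929619-45936058, minus strand), or SM22α, an abundant actin-bundling protein of smooth muscle, read 15 and 15 for CD1 luminal, 34 and 36 for DNp63 luminal, 179 and 184 for CD1 basal and 241 and 131 for DNp63 basal cells. The log2 difference was 3.02 in CD1 mice (adjusted p = 0.000218) and 2.14 in DNp63 mice (adjusted p = 0.00128). At 91.3 scaled reads per kilobase in CD1 basal cells it ranked 37 of the 38 genes. Genes on the opposite strand cover 67.9% of its exon bases, chiefly Pcsk7 and Gm48529, and the strand setting of the counting was not given in the sources used here, so its level is uncertain. Pcsk7 read 672 to 895 and Gm48529 38 to 88 across the 8 libraries, and neither was called in any comparison. Tagln2, the transgelin of non-muscle cells, read 9482 and 7235, 12902 and 11386, 5966 and 4567, and 6929 and 4617. It fell by 0.69 in CD1 mice (adjusted p = 0.0336) and by 1.07 in DNp63 mice (adjusted p = 0.00447), and all 4 luminal libraries lay above all 4 basal libraries.

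Tropomyosins wrap the actin filament and differed gene by gene. Tpm2, β-tropomyosin, read 199 and 189 for CD1 luminal, 345 and 278 for DNp63 luminal, 13322 and 11111 for CD1 basal and 11978 and 11830 for DNp63 basal cells, with log2 differences of 5.89 in CD1 and 5.26 in DNp63 mice. Tpm1, α-tropomyosin, read 7159 and 6539, 8415 and 7955, 17136 and 16867, and 16121 and 17472, with differences of 1.28 and 1.07. Tpm3 read 7705 and 6487, 7266 and 7282, 7302 and 5861, and 6166 and 5526, and its basal and luminal libraries overlapped in CD1 mice. Tpm4 read 5663 and 4805, 6342 and 5494, 6332 and 4959, and 8004 and 7093. Neither Tpm3 (−0.14, 95% interval −0.467 to 0.185) nor Tpm4 (0.07, −0.285 to 0.432) was called between the CD1 gates. By share per merged exon length Tpm4 led in luminal cells with 49.7% to 52.4% of the 4, and Tpm2 led in basal cells with 36.6% to 40.5%. These leads depend on the lengths. Undivided by length, Tpm1 was highest in every basal library, and Tpm4 lay under Tpm1 and Tpm3 in every luminal library. All 4 genes make several splice forms, which gene totals do not separate.

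**Figure D2:**
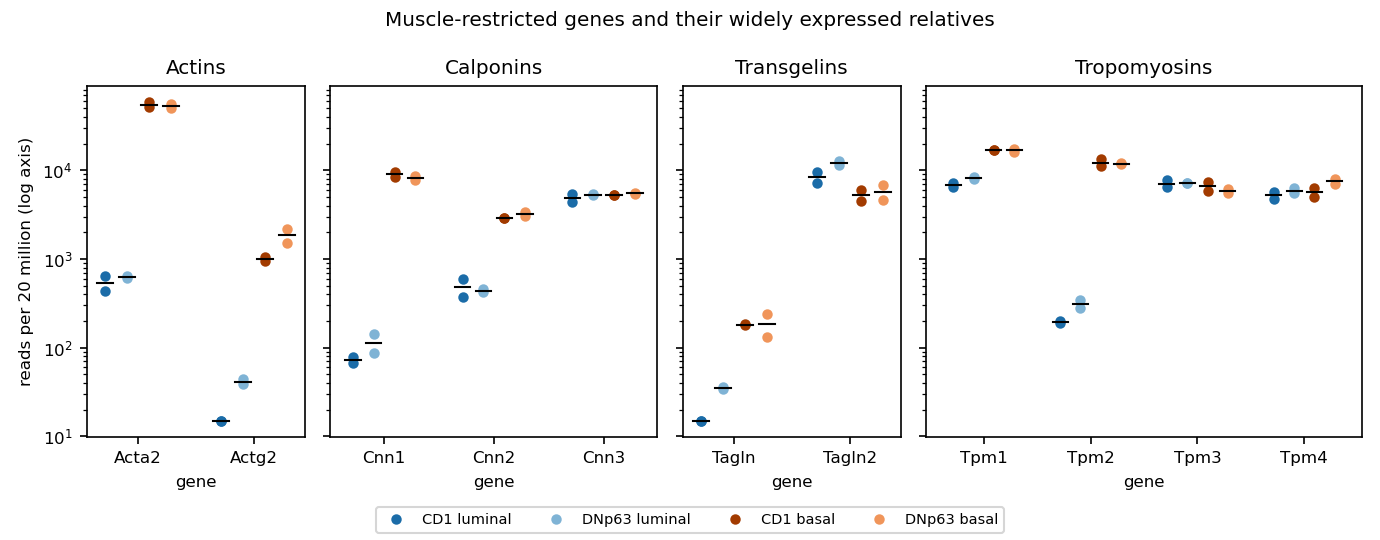
Scaled reads (log axis) of the actins, calponins, transgelins and tropomyosins in each library; points are libraries, black lines group means, and colours the 4 groups. Acta2, Cnn1 and Tpm2 are far apart between gates, whereas Cnn3, Tpm3 and Tpm4 lie together and Tagln2 is lower in basal cells.

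Intermediate filament and dense body genes all rose in basal cells. Des, desmin, the intermediate filament protein of muscle, read 43 and 41 for CD1 luminal, 31 and 12 for DNp63 luminal, 788 and 1078 for CD1 basal and 763 and 421 for DNp63 basal cells, a difference of 4.19 in CD1 and 4.38 in DNp63 mice. Synm, synemin, a partner of desmin, read 83 to 270 in luminal and 1446 to 3721 in basal libraries and rose by 4.09 and 3.72. Synpo2, an actin-bundling protein of dense bodies and Z-discs, read 36 to 86 in luminal and 2104 to 3059 in basal libraries and rose by 5.35 and 5.34. Csrp1, a LIM protein of smooth muscle and other cells, read 3901 and 3490, 7457 and 5658, 13959 and 16304, and 17719 and 17796, and rose by 2.00 and 1.48.

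The PDZ and LIM domain proteins, which link α-actinin to other proteins, differed from gene to gene. In CD1 mice Pdlim7 rose by 1.72 (adjusted p = 8.99e-05) and Pdlim3 by 0.85 (adjusted p = 0.0357). The Pdlim3 value was 0.39 when the second CD1 luminal library was left out, with 1 library standing for that group. Pdlim1 and Pdlim5 differed by 0.46 and −0.34 and were not called. In DNp63 mice Pdlim1 (0.66), Pdlim3 (1.80) and Pdlim7 (1.36) were higher. Pdlim3, called muscle-restricted, had its luminal level at 57% of the basal level in CD1 mice, the highest share of the 18.

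Crosslinkers and adhesion linkers other than Tns1 were well expressed in both gates. Flna, filamin A, read 5009 to 11733 in luminal and 57495 to 75316 in basal libraries and rose by 2.94 in CD1 and 2.86 in DNp63 mice. Tns1, tensin 1, which links integrins to actin, read 330 and 438 for CD1 luminal, 231 and 177 for DNp63 luminal, 9143 and 10176 for CD1 basal and 9201 and 7334 for DNp63 basal cells, a rise of 4.61 and 5.32. Actn1, Vcl and Lpp (α-actinin 1, vinculin and the LIM protein LPP) rose by 1.55, 0.70 and 0.56 in CD1 mice. Actn4 differed by 0.24 (adjusted p = 0.10) in CD1 mice and rose by 0.49 in DNp63 mice. Of Vcl's exon bases 25.5% lie opposite Ap3m1, which read 1417 to 1965 and was not called in any comparison. Tns1 and Cald1 thus resembled the muscle-restricted genes in the size of their gate difference, although widely expressed.

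Of the transcription regulators, Myocd was called between the gates and Srf was not. Srf, serum response factor, whose promoter with 2 boxes is printed above, read 1550 and 2627 for CD1 luminal, 2157 and 1769 for DNp63 luminal, 2285 and 2691 for CD1 basal and 2276 and 2036 for DNp63 basal cells. The gates overlapped, and its log2 difference was 0.27 (95% interval −0.268 to 0.801) in CD1 and 0.17 in DNp63 mice. Without the second CD1 luminal library the Srf difference in CD1 mice was 0.67, with 1 library standing for CD1 luminal cells. Myocd, myocardin, the muscle-specific partner of serum response factor, read 8 and 0, 14 and 0, 92 and 272, and 140 and 107. Those are 2 reads in CD1 luminal, 5 in DNp63 luminal, 88 in CD1 basal and 55 in DNp63 basal cells. The ratio of read shares was 51.8 in CD1 mice (95% exact interval 13.9 to 434) and 15.3 in DNp63 mice (6.16 to 48.8), and intervals of this kind cover counting error only. Myocd was called higher in basal cells of both mice (adjusted p = 0.00155 and 0.00319) and was the lowest of the 38 genes per length in CD1 basal cells, at 28.3.

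The myocardin-related factors were measured beside them. Mkl1, which encodes MRTF-A, rose by 0.57 between the CD1 gates (adjusted p = 0.00775) and by 0.80 between the DNp63 gates. Mkl2, which encodes MRTF-B, read 2433 to 3442 in luminal and 2703 to 3132 in basal libraries and was not called in any comparison.

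The oxytocin receptor and the potassium channel subunit were basal. Oxtr (chr6:112473683-112489943, minus strand), through which oxytocin contracts myoepithelium, read 1398 and 404 for CD1 luminal, 375 and 380 for DNp63 luminal, 22057 and 21794 for CD1 basal and 18949 and 20996 for DNp63 basal cells. The first CD1 luminal library stood above the other 3 luminal libraries, which lay between 375 and 404. The log2 difference was 4.82 ± 0.438 in CD1 and 5.72 ± 0.438 in DNp63 mice. Kcnmb1, the subunit that makes the large-conductance potassium channel of smooth muscle more sensitive to calcium, read 8 and 8, 9 and 8, 747 and 935, and 709 and 822. Luminal cells gave 4 and 5 reads in all, and the ratio of read shares was 117 in CD1 mice (95% exact interval 45.3 to 431) and 93.7 in DNp63 mice (39.8 to 291).

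**Figure D3:**
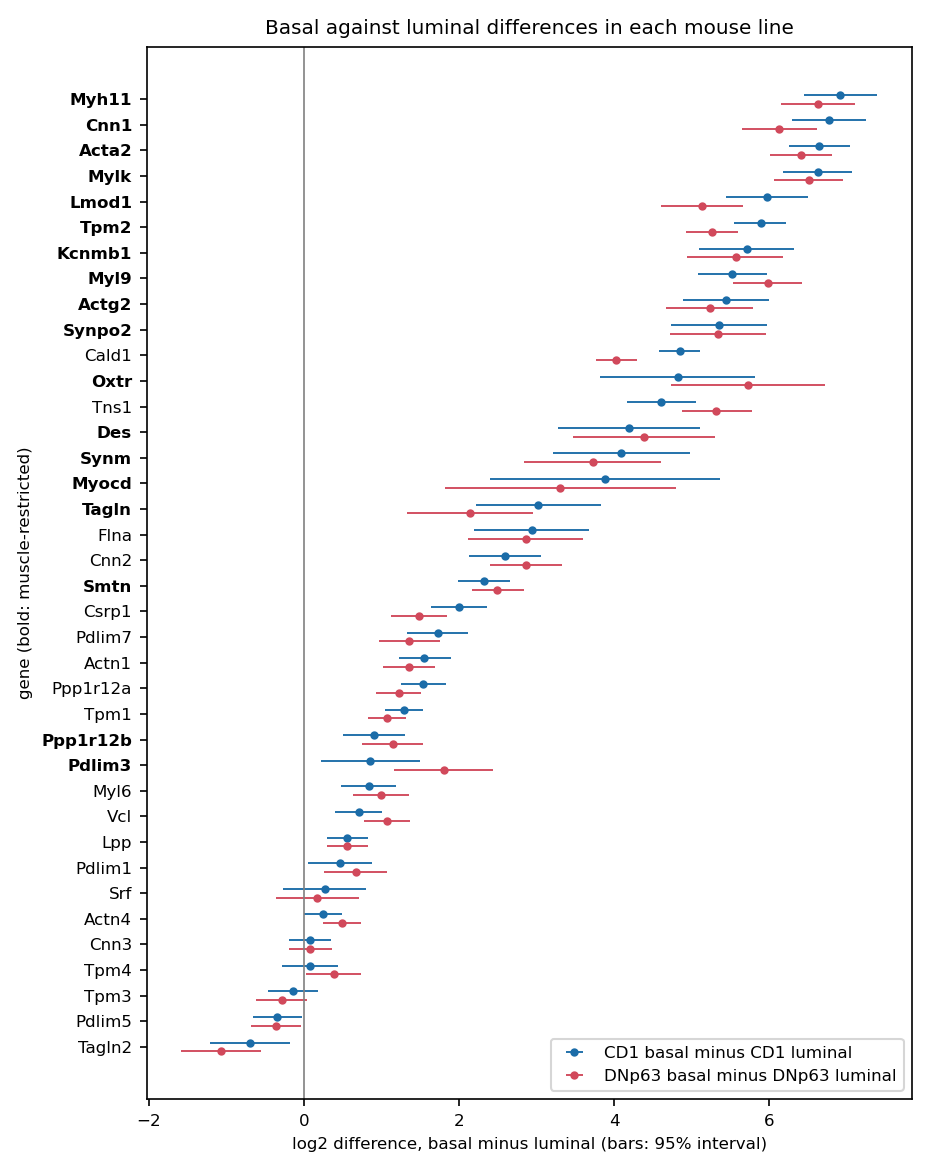
Log2 difference, basal minus luminal, of each of the 38 genes in CD1 and DNp63 mice, ordered by the CD1 value; points are estimates, bars 95% intervals, and bold names mark muscle-restricted genes. Myh11 leads at 6.91 and 6.63 and Tagln2 is last at −0.69 and −1.07, and in CD1 mice the muscle-restricted genes other than Smtn, Ppp1r12b and Pdlim3 lie above 3.

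Levels per kilobase of all annotated exons merged set the genes in order within CD1 basal cells, an order that depends on these lengths. Acta2 was first at 25160 scaled reads per kilobase, followed by Csrp1 at 7736, Myh11 at 6837, Flna at 6384, Myl9 at 4593 and Oxtr at 4577. In CD1 luminal cells the widely expressed Tagln2 (4015), Tpm4 (2376), Actn4 (2072) and Csrp1 (1889) had the highest levels, and Acta2 stood at 246.8. The median luminal level of the 18 muscle-restricted genes was 2.11% of the basal level in CD1 mice and 2.32% in DNp63 mice. Over 18 basal epithelial markers the median share was 2.66% in CD1 mice, from 0.404% for Irx4 to 99.9% for Itgb4, and 3.21% in DNp63 mice, from 0.903% to 78.3% for the same genes. For Trp63 the share was 0.846% in CD1 and 16.8% in DNp63 mice.

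Luminal cells of DNp63 mice, which carried more Trp63, differed from CD1 luminal cells in 4 of the 38 genes by the test. Of the 38 genes 3 were higher (Actg2, Cald1 and Csrp1), 1 was lower (Tns1) and 34 were not called, beside 4.38% of all genes tested, 2.64% higher and 1.74% lower. The median difference was 0.01 over the 38 genes, as over all genes, and −0.06 over the muscle-restricted genes. Actg2 rose by 1.06 (95% interval 0.504 to 1.62, adjusted p = 0.0479) from 15 and 15 to 39 and 44, still far under the 948 of the lowest basal library. Cald1 rose by 0.59 (0.318 to 0.853, adjusted p = 0.0276) and Csrp1 by 0.76 (0.402 to 1.11, adjusted p = 0.0310). Tns1 fell by 0.94 (interval −1.39 to −0.488, adjusted p = 0.0334). The groups did not overlap for any of these 4 genes. Of the 38 genes, 12 lay wholly higher and 6 wholly lower, beside 28.3% and 18% of all genes.

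The main markers of the contractile state were not called between the luminal groups. The log2 difference was 0.19 for Acta2 (95% interval −0.207 to 0.586), 0.00 for Myh11 (−0.476 to 0.481), 0.51 for Cnn1 (0.0273 to 0.985, adjusted p = 0.264) and 0.60 for Tpm2 (0.262 to 0.936, adjusted p = 0.0614). Tpm2 was called higher with a replicate block (adjusted p = 0.0309), with a block within each mouse line (adjusted p = 0.048) and without TMM scaling (adjusted p = 0.0414). Oxtr differed by −1.04 (−2.03 to −0.0404, adjusted p = 0.272). With the block within each mouse line that value was −1.51 (adjusted p = 0.046). Without the first CD1 luminal library, the high one for Oxtr, it was −0.15, and without the second it was −1.92. Without the first CD1 luminal library the difference was 0.95 for Flna and −0.75 for Myl9. Without the second it was −1.05 for Pdlim3. In the fits without a CD1 luminal library, 1 library stood for that group and gave no spread of its own. The 4 calls were unsteady, and of 20 alternative settings Actg2 lost its call in 15, Cald1 and Tns1 in 12 each and Csrp1 in 8. Leaving out single libraries gave 0 to 5 calls among the 38 genes, 0 without the first DNp63 luminal library, 1 without the second, 2 without the second CD1 luminal library, 1 without either CD1 basal library and 0 without either DNp63 basal library. Leaving out both second DNp63 libraries gave 0. The summed fibroblast markers read 10008 in the first and 51289 in the second CD1 luminal library, against 11868 and 19837 in DNp63 luminal cells. Their part in these differences was not tested.

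Basal cells of the mouse lines did not differ in any of the 38 genes by the test. DNp63 basal against CD1 basal gave 0 calls with limma and 0 with voom on recovered reads. Of all genes limma called 0.704%, 0.207% higher and 0.497% lower. An unadjusted limma p under 0.05 was found for 3 of the 38 genes and for 11.1% of all genes. The libraries did not overlap for 8 genes higher and 8 lower, beside 19.8% and 22.8% of all genes. The median difference was −0.04 over the 38 genes and −0.13 over the 18 muscle-restricted genes, of which 2 were positive (Actg2 and Pdlim3), against −0.02 over all genes. Intervals were narrow for some abundant genes, with −0.04 for Acta2 (−0.44 to 0.353) and −0.03 for Tpm2 (−0.366 to 0.307). They were wider for other abundant genes, with 0.265 for Flna (−0.48 to 1.01) and −0.13 for Oxtr (−1.13 to 0.863). They were also wider for Synm, at −1.04 (−1.92 to −0.163, adjusted p = 0.352), Des, at −0.69 (−1.61 to 0.227), and Actg2, at 0.85 (0.296 to 1.41, adjusted p = 0.216). Without both second DNp63 libraries the count was again 0.

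**Figure D4:**
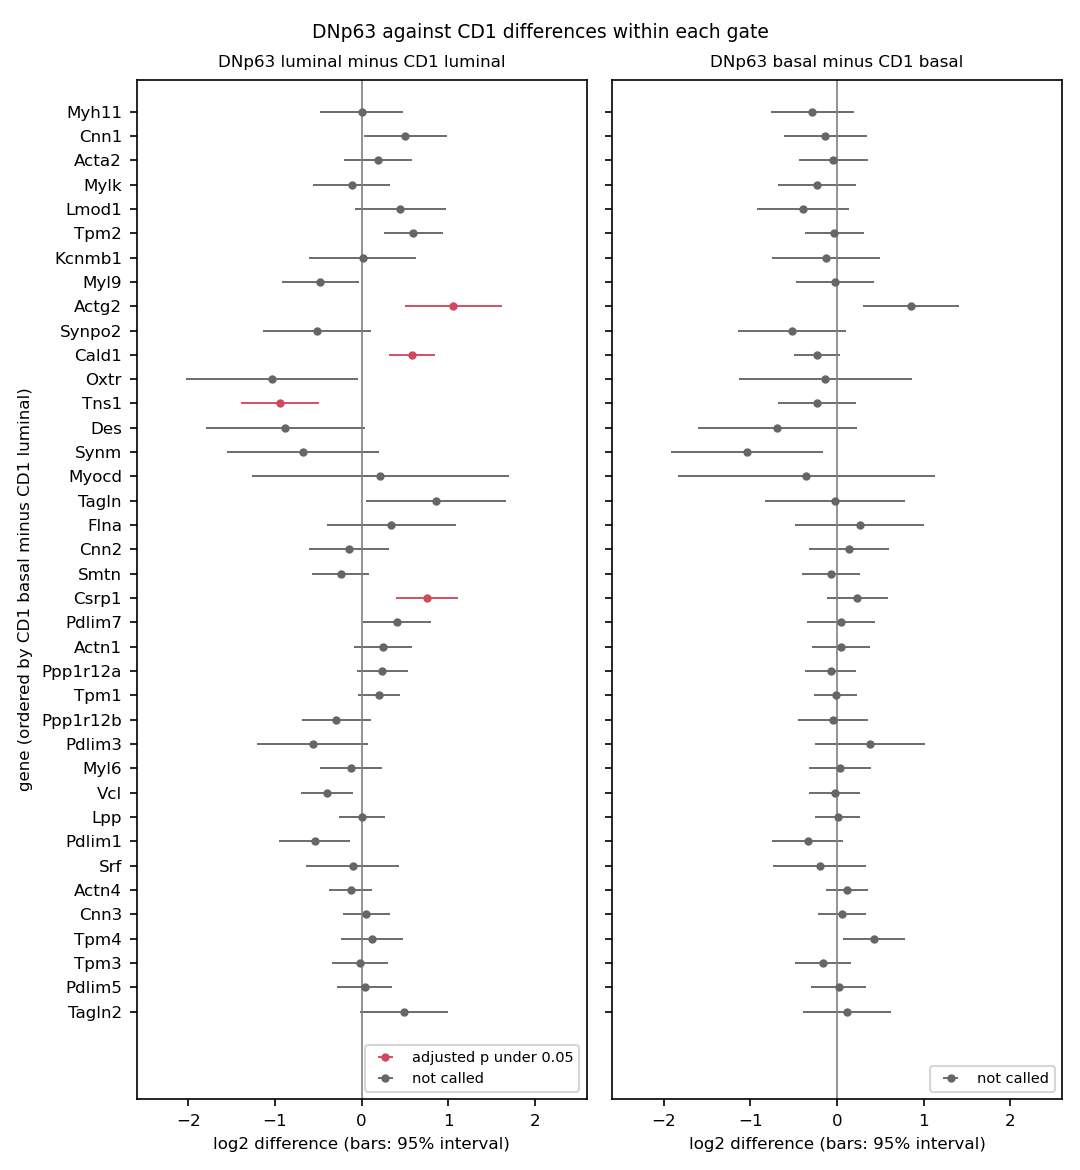
Log2 difference between DNp63 and CD1 cells of the 38 genes in the luminal gate (left) and the basal gate (right), in the order of the CD1 gate difference; points are estimates, bars 95% intervals, and red marks an adjusted p under 0.05. The 4 red genes are Actg2 (1.06), Csrp1 (0.76), Cald1 (0.59) and Tns1 (−0.94) in the luminal gate, and none is red in the basal gate.

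The gate differences themselves were compared between the mouse lines by an interaction term. None of the 38 genes was called with limma or with voom on recovered reads. An unadjusted limma p under 0.05 was found for 6 of the 38 genes and for 10.4% of all genes. Of all genes limma called 0.379%, 0.0947% higher and 0.284% lower. The nearest was Cald1 at −0.82 (95% interval −1.2 to −0.442, adjusted p = 0.0884, and 0.0295 and called with a replicate block within each mouse line), since DNp63 luminal libraries lay above and DNp63 basal libraries below those of CD1. The widest estimates were Pdlim3 at 0.95 (0.0456 to 1.85), Oxtr at 0.90 (−0.507 to 2.31) and Tagln at −0.88 (−2.03 to 0.257), with none called. Without the second CD1 luminal library the Oxtr estimate was 1.82, with 1 library standing for CD1 luminal cells. DNp63 basal set directly against CD1 luminal cells, a comparison that shares libraries with those above, gave 32 genes higher, 0 lower and 6 not called, beside 47.1% of all genes called, 25.2% higher and 22% lower. The libraries did not overlap for 33 genes higher and 3 lower, beside 38% and 35.2% of all genes. Without both second DNp63 libraries 28 were called. Tpm4 (0.50) and Actn4 (0.36) were called there but not between the CD1 gates, and Tagln2 (−0.58) was not.

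Genes that act on the contractile machinery were read from 3 lists. Of 48 contraction signalling genes, which carry signals through receptors, calcium and cyclic GMP, 23 were higher and 6 lower in the basal gate of CD1 mice, with a median of 0.41, beside 23.9% and 20.6% of all genes. The largest rises were in Mrvi1 (5.55), a target of cyclic GMP-dependent kinase, Gucy1a3 (4.84), a subunit of the nitric oxide receptor, and Ednrb (4.79), an endothelin receptor. Of 26 tested genes around SRF, MRTF and muscle transcription, 17 were higher and 1 lower with a median of 0.89, led by Ctgf (5.40), a secreted matrix protein, Tgfb1i1 (4.41), an adhesion protein, and Mef2c (4.40), a muscle transcription factor. Of 51 tested further contractile and dense body genes, 29 were higher and 5 lower with a median of 0.93, with Lims2 (5.13) and Parvb (4.69), both proteins of integrin adhesions, among the largest rises. The corresponding counts between the DNp63 gates were 23 and 6, 18 and 1, and 32 and 5 (24.8% and 24.3% of all genes), and for DNp63 basal against CD1 luminal cells 23 and 7, 16 and 2, and 31 and 4 (25.2% and 22% of all genes). Without both second DNp63 libraries these were 18 and 2, 14 and 0, and 23 and 2 between the DNp63 gates and 19 and 4, 14 and 1, and 23 and 3 against CD1 luminal cells.

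Genes of these lists were also compared between the mouse lines. Of all genes 2.64% were higher and 1.74% lower in DNp63 luminal than in CD1 luminal cells, and without both second DNp63 libraries none of the luminal calls named next remained. In luminal cells the signalling list gave 0 higher and 1 lower (Plcb1, −1.05, a phospholipase C). The transcription list gave 1 higher and 3 lower, among them Fhl2 (1.24), a LIM cofactor, Cyr61 (−1.49), a matrix protein, and Fos (−1.21), an immediate-early factor. The further contractile list gave 0 higher and 3 lower, Pgm5 (−2.81), Tns4 (−2.10) and Tns3 (−1.04). Tns3 and Tns4 encode tensins. Tns3 read 2160 and 1619 in CD1 luminal and 844 and 1045 in DNp63 luminal cells, against 3965 and 3070 for the CD1 and 5357 and 6150 for the DNp63 basal libraries, and its interaction term was called at 1.76 (adjusted p = 0.0378), a call lost without both second DNp63 libraries. Tns4 read 571 and 1145 in CD1 luminal and 189 and 192 in DNp63 luminal cells. In the basal gate limma called none of the genes of the 3 lists, with 6, 4 and 11 at an unadjusted p under 0.05, beside 11.1% of all genes.

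Markers of other cells also moved with the basal gate. Vascular smooth muscle and pericytes express many of the 38 genes, and of 18 of their markers 15 were higher and 1 lower in the basal gate of CD1 mice, with a median of 3.47. Their summed level was 8211 to 10144 in luminal and 23873 to 32476 in basal libraries, and Rgs5, a defining pericyte marker, read 195 to 369 and 6933 to 10073. Most of each luminal sum was Notch3, Steap4 and Trpc6, so the sums understate the rise of most other markers. Trpc6, the marker called lower, read 592 to 1299 in luminal and 150 to 328 in basal libraries. Olfr78, an olfactory receptor of vascular smooth muscle, read 0 to 3 in luminal and 55 to 132 in basal libraries, and Notch3 did not differ by the test (−0.33). Of 16 endothelial markers 15 were higher, with sums of 2844 to 4898 and 47694 to 69949, although the gates were CD31-. All 11 adipocyte markers were higher, with sums of 905 to 2538 and 19859 to 35330. Most of each basal sum was Fabp4, at 13967 to 21865, whereas Adipoq read 0 to 8 in luminal and 37 to 160 in basal libraries. Fibroblast markers were higher for 2 of 13 tested, with sums of 10008 to 51289 in luminal libraries. In the basal gate the CD1 sums of 50987 and 75561 did not overlap the DNp63 sums of 110138 and 133339. Between the lines 1 of the 13 was called lower in the luminal gate and none in the basal gate. There 4 had an unadjusted p under 0.05, beside 11.1% of all genes. The part of these cells in the basal levels of the 38 genes was not tested.

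Other lists differed in size and direction. Markers of skeletal muscle, whose sarcomere genes are distinct from the 38, summed to 103 to 149 in luminal and 253 to 381 in basal libraries. Immune markers, for which 2 were higher and 1 lower of 8 tested, summed to 3838 to 12247 and 1576 to 4189. Most of each luminal immune sum was Cd14, at 11372 and 9447 in CD1 luminal and 2987 and 3655 in DNp63 luminal libraries. Cd14 read 207 to 2239 in basal libraries. Cd68 read 149 to 189 in luminal and 450 to 609 in basal libraries, so the sums do not give the direction of the whole list. Basal epithelial markers were higher for 17 of 18, with sums of 20107 to 26988 in luminal and 121615 to 158948 in basal libraries. All 21 luminal markers were lower in CD1 basal cells, with sums of 336783 to 367470 in luminal, 51470 to 60830 in CD1 basal and 25601 to 28722 in DNp63 basal libraries. Between the mouse lines none of the pericyte, endothelial or adipocyte markers was called by limma in either gate. At an unadjusted p under 0.05 there were 6, 6 and 2 of them in the luminal and 1, 1 and 3 in the basal gate. The shares of all genes at that threshold were 17.1% and 11.1%.

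**Figure D5:**
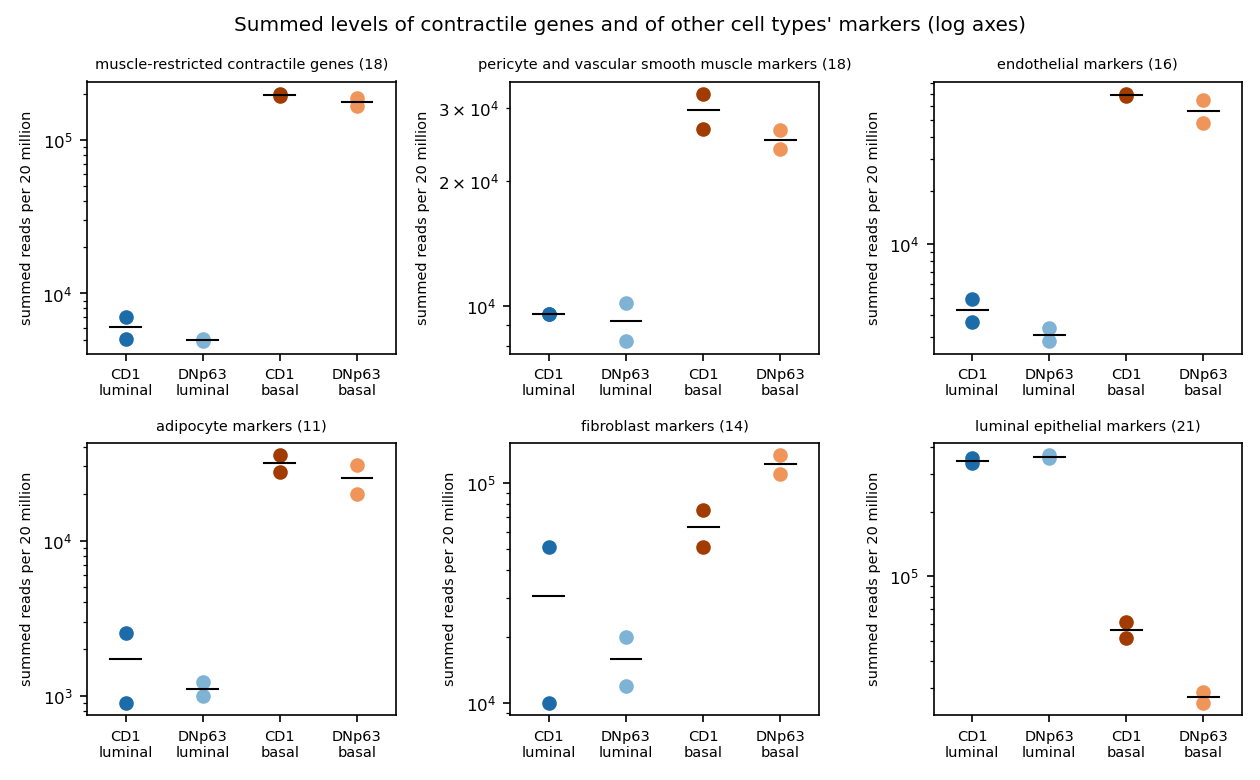
Summed scaled reads (log axes, each panel with its own range) of the 18 muscle-restricted genes and of 5 marker lists in each library; points are libraries and black lines group means. Contractile, pericyte, endothelial and adipocyte sums are higher in the 4 basal libraries, the luminal marker sum is lower there, and the second CD1 luminal library stands out for fibroblast markers at 51289.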

How the data were processed

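Per the labels' protocols, RNA of sorted mouse mammary cells was made into libraries with the Ovation Solo system and sequenced on a NovaSeq. STAR, HTSeq and the GRCm38 build are named in the submitters' processing notes; their versions and the strand setting were not given in the sources used here. Values deposited by the authors are scores: reads per gene that the authors scaled to 20000000 per library and rounded up. Whole reads were recovered from the step between low values, with 99.9% to 100% of values up to 2000 coming out whole. The table also had 10 empty columns.

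The values were scaled by TMM factors (trims of 30% and 5%) computed from recovered reads and moved to log2(value + 8). A fold change is on that scale, which understates changes of low genes. Genes with at least 40 in at least 2 libraries (16900) were fitted with limma 3.58.1 (R 4.3.3, intensity trend, 4 group means, 4 residual degrees of freedom, moderated two-sided test), with Benjamini-Hochberg adjustment over all of them and calls under 0.05. Genes under 40 in all luminal libraries could enter the test only through basal libraries, so for them being tested and being higher there are linked. The code was tested on simulated data. Voom on recovered reads, other scalings, pseudocounts, filters and sample sets were the alternatives. Gene models and lengths (all annotated exons of a gene merged) are from GENCODE M21, which held 49412 of the 49671 gene IDs.

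The 38 genes, the split into muscle-restricted and widely expressed genes, and the lists were chosen with earlier results of these data known, so their counts are not independent support. Values in every library are given for 20 genes fixed by name and for any other gene called between the mouse lines. Up to 3 genes with the largest called difference are named per list, with the MRTF genes and abundant actin and myosin relatives. 1 gene that this rule would name is not reported here.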

Additional observations from a re-analysis of the deposited data

How the results depend on the processing

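Over the 20 alternative settings the number of the 38 genes called stayed within 29 to 33 for CD1 basal against CD1 luminal, 27 to 36 for DNp63 basal against DNp63 luminal and 28 to 33 for DNp63 basal against CD1 luminal cells, and no called difference changed sign. DNp63 luminal against CD1 luminal, with 4 calls, gave 0 with no filter on low values, with no intensity trend, with only the compared groups and without both second DNp63 libraries (chosen after seeing the data), 1 with voom, and 0 to 5 when single libraries were left out. DNp63 basal against CD1 basal gave 0 calls throughout except 1 with only the compared groups (Synm, −1.01, adjusted p = 0.0452). The interaction gave 0 to 1 when single libraries were left out. With the replicate number as a block the counts were 32 for CD1 basal against CD1 luminal, 5 for DNp63 luminal against CD1 luminal, 0 for DNp63 basal against CD1 basal, 34 for the DNp63 gates, 33 for DNp63 basal against CD1 luminal and 0 for the interaction. Deviations of same-numbered libraries correlated across genes at 0.341 between the CD1 gates and 0.267 between the DNp63 gates and at −0.0143 to 0.0406 otherwise, and Xist was low in the second library of both DNp63 gates. With only 2 numbers and no label on their origin this is a hint from the data that numbers pair the gates within a line. A replicate block within each mouse line, added after seeing the data, gave 33, 5, 0, 36, 33 and 1 in the same order, the 1 being Cald1 (adjusted p = 0.0295). With no filter on low values 23.4% of all genes were called between the CD1 gates in place of 44.5%, 1.5% in place of 4.38% between the luminal groups, 0.182% in place of 0.704% between the basal groups, 26.2% in place of 49.1% between the DNp63 gates, 25.2% in place of 47.1% for DNp63 basal against CD1 luminal and 0.0339% in place of 0.379% for the interaction. For the luminal groups, the basal groups and the interaction these shares were 2.51%, 0.178% and 0.0947% without the intensity trend. Voom gave 0.385% for the basal groups and 0.13% for the interaction, the replicate block 1.2% and 0.716%, and the block within each mouse line 2.34% and 2.91%. With only the compared groups the luminal groups gave 2.15%. Without both second DNp63 libraries the shares were 0.213% for the luminal groups, 0.116% for the basal groups, 22.8% for the DNp63 gates, 29.3% for DNp63 basal against CD1 luminal and 0% for the interaction. Where an arm kept 1 library, that library was assumed to vary like the other groups. Depth limits Myocd, Kcnmb1, Actg2, Tagln, Lmod1 and Des in luminal cells, where a few reads decide a value. The cause of these shifts was not tested.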
